A study of Arabidopsis thaliana with 12 samples.

Results

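Transcript levels of 6 genes of the DOF family of plant transcription factors were followed in Arabidopsis thaliana roots in which the transcription factor PLT5 was switched on. The genes were PEAR1, PEAR2, TMO6, DOF6, OBP2 and HCA2, taken by their locus identifiers from the 34262 loci in each of 12 count files, and all 6 passed the filter on low counts that left 21439 genes for testing. Every plant, mock or induced, carried 35S:XVE>>PLT5-TagRFP, in which the 35S promoter, active in most plant tissues, drives the estradiol-activated regulator XVE, and XVE in turn switches on PLT5 carrying the fluorescent tag TagRFP. Mock roots received DMSO and induced roots received the inducer labelled EST, and both were taken at 8 h and at 24 h, which makes 4 groups of 3 biological replicates. Each replicate pooled 1.5 cm lengths of root from just under the hypocotyl of 15 plants, with visible lateral roots cut away. Plants without the construct are not among the samples, so effects of the inducer itself and of PLT5 cannot be told apart.

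DOF proteins bind DNA through a single zinc finger held by 4 cysteines, and the family recognises the core sequence AAAG. PEAR1 and PEAR2 (PHLOEM EARLY DOF) are switched on by cytokinin in the youngest phloem cells of the root, move into neighbouring cells and promote the divisions by which a root vascular cylinder grows in width. TMO6, a target of the auxin response factor MONOPTEROS, and HCA2, found through a mutant with high cambial activity, act in the same process, as does DOF6, which is also known from seeds as a repressor of germination. OBP2 is known from leaf phloem, where it raises indole glucosinolate synthesis. HD-ZIP III transcription factors of the xylem side oppose the PEAR proteins, and the phloem gene SMXL3 is a known PEAR target.

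In the TAIR10 coordinates of the files, PEAR1 is AT2G37590, chromosome 2, 15769086 to 15770805, plus strand, and PEAR2 is AT5G02460, chromosome 5, 539249 to 541316, minus strand. TMO6 is AT5G60200, chromosome 5, 24240810 to 24242523, plus strand, and HCA2 is AT5G62940, chromosome 5, 25256852 to 25258704, minus strand. DOF6 is AT3G45610, chromosome 3, 16739247 to 16740546, minus strand, and OBP2 is AT1G07640, chromosome 1, 2353031 to 2356413, minus strand. No other locus of the files overlaps any of the 6 spans. Each gene has 2 exons in the RefSeq transcript used, and the zinc finger is encoded in exon 2, within the coding sequence. The 87 bases that encode the finger, from the first to the last of its cysteines, are shown 5′ to 3′ for 5 of the genes to let the reader see how alike they are where they are most conserved, with the 4 cysteine codons in capitals (RefSeq TAIR10.1 genome).
PEAR1 (chr2:15769775-15769861, plus strand): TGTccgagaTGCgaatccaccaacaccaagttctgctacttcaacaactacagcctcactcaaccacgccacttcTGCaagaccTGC
PEAR2 (chr5:540374-540460, minus strand): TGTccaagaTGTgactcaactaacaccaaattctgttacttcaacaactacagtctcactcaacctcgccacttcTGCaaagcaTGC
TMO6 (chr5:24241346-24241432, plus strand): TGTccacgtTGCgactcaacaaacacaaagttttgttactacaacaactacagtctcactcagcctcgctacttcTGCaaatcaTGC
DOF6 (chr3:16740058-16740144, minus strand): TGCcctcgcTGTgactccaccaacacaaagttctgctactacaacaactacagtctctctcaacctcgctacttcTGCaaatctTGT
OBP2 (chr1:2355382-2355468, minus strand): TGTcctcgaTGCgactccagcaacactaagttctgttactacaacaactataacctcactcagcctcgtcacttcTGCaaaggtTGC
Over these 87 bases the 10 pairs of these genes were identical at 80.5% (PEAR1 and TMO6) to 87.4% (PEAR2 and TMO6) of positions, and PEAR1 and PEAR2 at 86.2%. Over whole transcripts the longest stretch without a difference between any 2 of these 5 genes was 26 bases, shared by TMO6 and DOF6.

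Library totals were 34958324 to 41447647 counts. The targeted gene PLT5 followed the labels in all 12 libraries, with 11.8 to 17.2 CPM (counts scaled to a common library total, with TMM factors) in the 6 mock libraries and 2382 to 2929 CPM in the 6 induced ones, transgene and native gene together. A gene is said to have risen, fallen or been called where edgeR's quasi-likelihood test over all 21439 genes gave a Benjamini-Hochberg adjusted p under 0.05, log2 fold changes compare 3 with 3 libraries, and values with ± are means and SD of 3 libraries.

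In mock roots TMO6 was the most abundant of the 6 genes and DOF6 the least. Levels of different genes were compared as CPM per kilobase (kb) of the gene span given in the files. At 8 h in mock roots TMO6 had 24.4 ± 2.28 CPM per kb, OBP2 6.05 ± 0.552, PEAR1 5.04 ± 0.305, PEAR2 3.44 ± 0.287, HCA2 1.98 ± 0.25 and DOF6 0.639 ± 0.195 CPM per kb. The order was the same in mock roots at 24 h, and no neighbours in it overlapped over the 3 libraries at either time. With the longest RefSeq transcript as the length the order was unchanged, but OBP2 and PEAR1 overlapped at 8 h. Between mock roots at 8 h and 24 h none of the 6 genes was called, in a comparison in which 0.662% of all genes were, 0.490% higher and 0.173% lower. PEAR2 and HCA2 were lower in every mock library of 24 h than of 8 h, where 13.4% of all genes did not overlap and 6.68% were lower without overlap. The mock log2 differences, 24 h minus 8 h, ran from -0.36 for HCA2 (95% interval -0.68 to -0.0388) to 0.03 for TMO6 (95% interval -0.13 to 0.2).

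In induced roots part of the set was lower by 8 h and nearly all of it by 24 h. At 8 h PEAR1 and DOF6 fell and none of the 6 rose, where 45.5% of all genes changed and 23.1% fell. By 24 h PEAR1, PEAR2, TMO6, DOF6 and HCA2 fell and OBP2 was not called, where 72.3% of all genes changed and 34.0% fell. The median log2 fold change of the 6 was -0.17 at 8 h and -1.06 at 24 h, beside 0.02 and 0.06 for all genes tested. The response differed between the times for PEAR1, PEAR2, TMO6 and HCA2, each further down at 24 h, where 40.8% of all genes were called in this interaction and 22.6% were called lower. In a bulk sample, fewer cells that express a gene and less of its RNA per cell cannot be told apart.

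**Figure D1:**
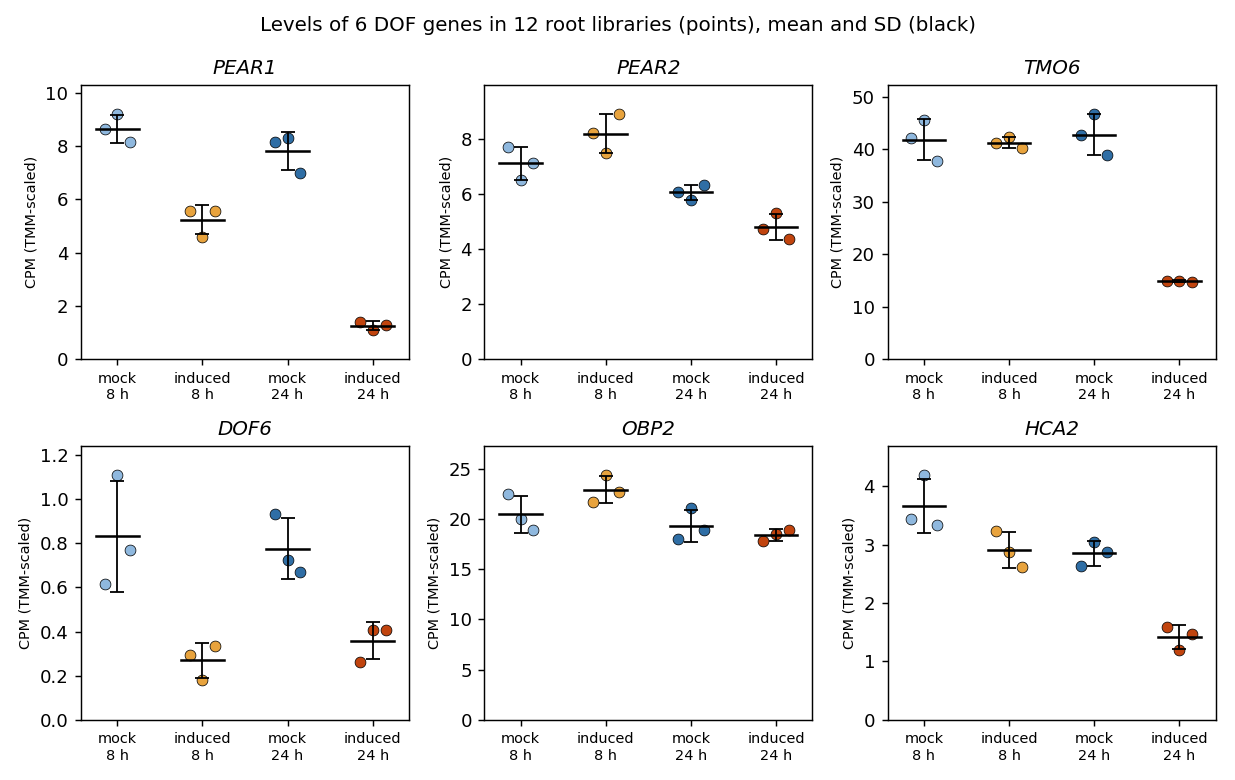
Level of each gene in CPM (y axis, linear from 0, a different range in each panel) in the 3 libraries of each of the 4 groups (points), with the mean and SD in black. PEAR1 steps down from mock to induced at 8 h and again at 24 h, TMO6 is low in the induced 24 h libraries only, and OBP2 overlaps between mock and induced at both times.

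PEAR1 fell most of the 6 by 24 h. Its CPM in replicates 1, 2 and 3 was 8.64, 9.2 and 8.15 in mock and 5.56, 4.6 and 5.57 in induced roots at 8 h. At 24 h it was 8.17, 8.3 and 6.99 in mock and 1.41, 1.07 and 1.27 in induced roots. All induced libraries were below all mock libraries of the same time, as for 26.9% of all genes at 8 h and 34.9% at 24 h (groups apart in either direction, 55.1% and 75.4%), and the induced libraries of 24 h were below those of 8 h. PEAR1 fell by 0.72 on the log2 scale at 8 h (SE 0.113, 95% interval -0.97 to -0.48, adjusted p = 0.000266) and fell by 2.64 at 24 h (SE 0.131, 95% interval -2.93 to -2.36, adjusted p = 3.01e-09). On a linear scale the level fell by 39.5% at 8 h and fell by 84% at 24 h. The later response was the larger (interaction -1.92, SE 0.174, adjusted p = 4.54e-06).

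PEAR2, which shares its name and its place in the phloem with PEAR1, changed less. At 8 h its CPM was 7.69, 6.5 and 7.12 in mock and 8.21, 7.47 and 8.89 in induced roots. At 24 h it was 6.07, 5.78 and 6.32 in mock and 4.72, 5.3 and 4.35 in induced roots. With TMM the groups overlapped at 8 h and did not at 24 h. Every induced library was then the lower, as for 34.9% of all genes at 24 h (75.4% apart in either direction). With total library size the PEAR2 groups overlapped at 24 h and not at 8 h, when the induced ones were higher. The log2 fold change at 8 h was 0.2 (SE 0.101, 95% interval -0.0161 to 0.42, adjusted p = 0.12) and was not called, and at 24 h PEAR2 fell by 0.34 (SE 0.105, 95% interval -0.57 to -0.11, adjusted p = 0.0114). With total library size in place of TMM, PEAR2 was called higher at 8 h (0.30, adjusted p = 0.0257) and was not called at 24 h (-0.20, adjusted p = 0.109), so its calls turn on the scaling. The responses at the 2 times differed (interaction -0.54, adjusted p = 0.0106), and this call held under all 17 alternatives run.

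The counts of PEAR1 over those of PEAR2 in the same library give a comparison that no library scaling touches. The log2 ratio was 0.167, 0.501 and 0.196 in mock and -0.564, -0.699 and -0.676 in induced roots at 8 h, and 0.429, 0.523 and 0.145 in mock and -1.75, -2.30 and -1.77 in induced roots at 24 h. PEAR1 had the more counts of the pair in all 6 mock libraries and the fewer in all 6 induced ones. The mean ratio moved by -0.93 at 8 h and -2.31 at 24 h, each with p = 0.10 in a two-sided exact permutation test, the smallest p that 3 against 3 libraries allow (adjusted p = 0.133 over 4 such ratio tests).

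TMO6 and HCA2, the members named for auxin response and for cambial activity, were called lower at 24 h and not at 8 h. With TMM, HCA2 already lay below every mock library at 8 h, as for 26.9% of all genes (55.1% apart in either direction). With total library size the HCA2 groups overlapped at 8 h. The CPM of TMO6 was 42.2, 45.6 and 37.8 in mock and 41.2, 42.3 and 40.2 in induced roots at 8 h, and the groups overlapped. At 24 h it was 42.7, 46.7 and 38.9 in mock and 14.9, 15 and 14.6 in induced roots, and every induced library was below every mock one, with an SD of 0.181 CPM between the induced libraries. The log2 fold change of TMO6 was -0.02 at 8 h (SE 0.075, 95% interval -0.18 to 0.14, adjusted p = 0.843), and it fell by 1.53 at 24 h (SE 0.0784, 95% interval -1.7 to -1.36, adjusted p = 3.96e-09). The 2 responses differed by -1.50 (SE 0.108, adjusted p = 7.14e-07).

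HCA2 was at a lower level throughout, with 50 to 140 counts per library. Its CPM was 3.45, 4.2 and 3.35 in mock and 3.24, 2.87 and 2.63 in induced roots at 8 h. With TMM these groups did not overlap, but with total library size induced replicate 1 (3.29) stood above mock replicate 3 (3.22). At 24 h the CPM of HCA2 with TMM was 2.63, 3.05 and 2.87 in mock and 1.6, 1.19 and 1.47 in induced roots. The difference at 8 h was not called (log2 fold change -0.33, SE 0.146, 95% interval -0.65 to -0.0101, adjusted p = 0.0861), and HCA2 fell by 1.01 at 24 h (SE 0.157, 95% interval -1.35 to -0.66, adjusted p = 8.64e-05). Its responses at the 2 times differed by -0.68 (adjusted p = 0.0237), but that call was lost without any 1 of 5 libraries: mock 8 h replicate 1 (0.0538) or 3 (0.0523), induced 8 h replicate 1 (0.0683), mock 24 h replicate 2 (0.0566) or induced 24 h replicate 2 (0.0603), given as adjusted p.

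DOF6 fell early and rests on few reads. It had 24 to 37 counts per mock library and 7 to 17 per induced library. Its CPM was 0.613, 1.11 and 0.77 in mock and 0.292, 0.181 and 0.335 in induced roots at 8 h. At 24 h it was 0.931, 0.725 and 0.669 in mock and 0.262, 0.406 and 0.409 in induced roots. The induced libraries were below the mock libraries at both times, with the widest spread between replicates of any of the 6 genes (SD 30.5% of the mean in mock roots at 8 h). DOF6 fell by 1.6 at 8 h (SE 0.327, 95% interval -2.31 to -0.89, adjusted p = 0.00176) and fell by 1.11 at 24 h (SE 0.312, 95% interval -1.78 to -0.43, adjusted p = 0.00657). The difference between these responses was 0.5 (95% interval -0.5 to 1.49, adjusted p = 0.415) and was not called, and at this depth the interval still allows a change of more than 1 on the log2 scale.

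OBP2, the glucosinolate regulator, was not called in either induction comparison. Its CPM was 22.5, 19.96 and 18.9 in mock and 21.7, 24.4 and 22.7 in induced roots at 8 h, and 18, 21.1 and 18.9 in mock and 17.8, 18.5 and 18.9 in induced roots at 24 h. Mock and induced libraries overlapped at both times with TMM. With total library size they overlapped at 24 h only, and the induced ones were higher at 8 h. Its log2 fold changes were 0.16 at 8 h (SE 0.0795, 95% interval -0.010 to 0.34, adjusted p = 0.114) and -0.07 at 24 h (SE 0.08, 95% interval -0.24 to 0.11, adjusted p = 0.45), so a change of more than about 0.24 in either direction lies outside the 24 h interval. OBP2 was called higher at 8 h with total library size (0.26, adjusted p = 0.0163) and without mock 8 h replicate 1 (0.24, adjusted p = 0.0347). Its responses at the 2 times differed by -0.23, not called (adjusted p = 0.121), but were called without mock 8 h replicate 1 (-0.31, adjusted p = 0.0438). Between induced roots of 8 h and of 24 h it fell by 0.32 (adjusted p = 0.00452), where 58.0% of all genes changed.

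**Figure D2:**
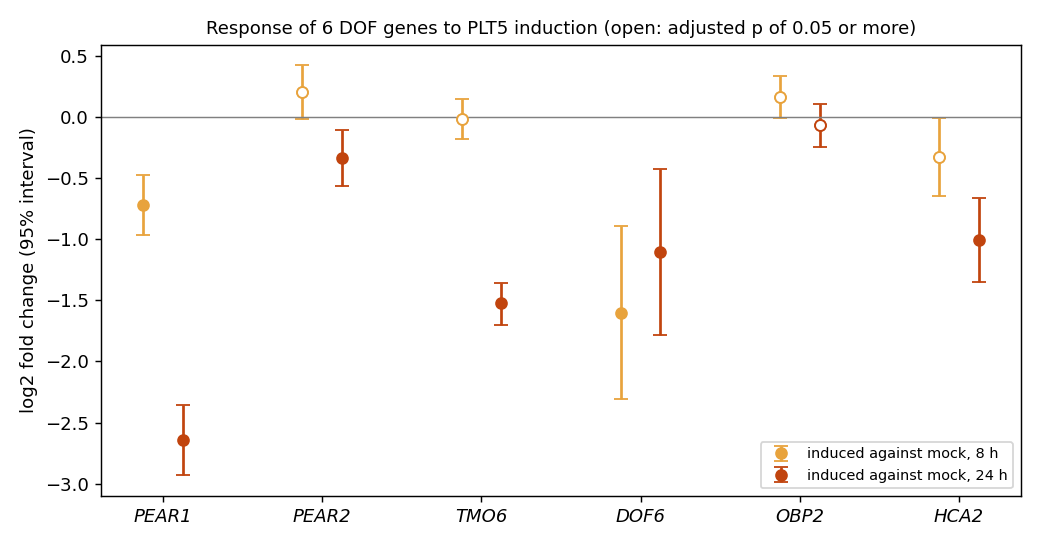
Log2 fold change of induced against mock roots (y axis) with its 95% interval for each of the 6 genes at 8 h (orange) and 24 h (red), open where the adjusted p is 0.05 or more. PEAR1 and DOF6 are filled and below 0 at 8 h, and at 24 h every gene but OBP2 is, PEAR1 the farthest at -2.64.

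Within induced roots, all members but DOF6 fell between the times, where 30.2% of all genes did. The same 5 had no overlap between the induced libraries of 8 h and 24 h, as for 65.5% of all genes, 33.3% in the lower direction. From 8 h to 24 h PEAR1 fell by 2.06, TMO6 fell by 1.47, HCA2 fell by 1.04 and PEAR2 fell by 0.77 on the log2 scale, each with an edgeR adjusted p of 0.000104 or less, and DOF6 was not called (0.41, 95% interval -0.36 to 1.18). This comparison shares its induced libraries with the 2 induction comparisons.

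The summed level of the set was lower in induced roots at 24 h, and its make-up differed. The sum of the 6 genes was 41.6 ± 3.02 CPM per kb in mock and 39.6 ± 0.245 in induced roots at 8 h, which overlapped, and 40.3 ± 2.92 and 18.2 ± 0.139 CPM per kb at 24 h, which did not. TMO6 made up 61.9% ± 1.2 (SD) of the sum in mock and 47.6% ± 0.42 in induced roots at 24 h. PEAR1 went from 11.3% ± 0.52 to 4.0% ± 0.56, while PEAR2 went from 7.31% ± 0.85 to 12.7% ± 1.2 and OBP2 from 14.2% ± 0.84 to 29.9% ± 0.97. The order of levels, per kb, in induced roots at 24 h was TMO6, OBP2, PEAR2, HCA2, PEAR1 and DOF6, in which HCA2 and PEAR1 overlapped over the 3 libraries. The place and share of OBP2 depend on its length. It has a span of 3383 bases and 3097 in the longest of its 3 transcripts, against 1714 and 1614 for TMO6. In counts OBP2 stood above TMO6 in these libraries (747, 777 and 788 against 627, 627 and 609). Shorter OBP2 transcripts were not tried. PEAR2 already stood above PEAR1 in induced roots at 8 h, without overlap. The mean log2 count ratio of TMO6 to OBP2, which needs no scaling, was 1.03 ± 0.15 in mock and 0.85 ± 0.07 in induced roots at 8 h, with overlap (two-sided exact permutation p = 0.20), and 1.14 ± 0.10 in mock and -0.31 ± 0.06 in induced roots at 24 h (two-sided exact permutation p = 0.10, the smallest possible).

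**Figure D3:**
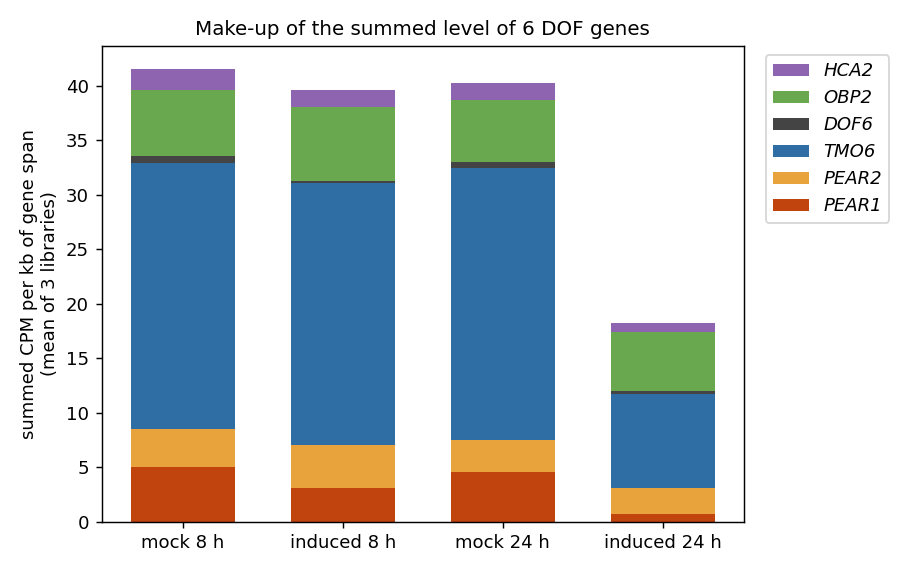
Stacked mean CPM per kb of gene span of the 6 genes (y axis, from 0) in each group of 3 libraries (x axis). The bar of induced roots at 24 h reaches 18.2 CPM per kb against 40.3 in mock roots of the same time, and TMO6 (blue) and PEAR1 (red, at the base) lose the most CPM per kb.

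Across the 12 libraries the profiles of PEAR1, TMO6 and HCA2 lay close together. Pearson's r of log2 CPM was 0.965 for PEAR1 and TMO6, 0.951 for PEAR1 and HCA2 and 0.934 for TMO6 and HCA2. It was 0.676 for PEAR1 and PEAR2, and DOF6 with OBP2 gave -0.392. These are descriptions over libraries that share 4 group means, and within groups the first 3 values were 0.391, 0.574 and 0.435. Among all genes tested, those most like PEAR1 by this measure over 12 libraries were the beta-glucosidase gene BGLU44 (AT3G18080, r = 0.997), AT4G19050 and AT4G10060. For TMO6 they were AT1G63310, the metacaspase gene MC3 (AT5G64240) and AT2G42690, with r of 0.996 to 0.998. For HCA2 they were NAI2 (AT3G15950), AT1G29200 and AT3G57420 at 0.983 to 0.987, and for DOF6 the amino acid transporter gene CAT7 (AT3G10600), AT3G13403 and CYP705A22 at 0.948 to 0.964. PEAR2 was most like ACO1 (AT2G19590), which encodes an ethylene-forming enzyme, AT3G14410 and the glutamine synthetase gene GSR2 at 0.954 to 0.962. OBP2 had the weakest likenesses, to FRS6 (AT1G52520), AT1G30090 and AT3G06270 at 0.905 to 0.929. Pearson's r leaves the size of a change aside. Beside PEAR1 at -2.64, the log2 fold change at 24 h was -2.67 for AT4G10060 but -6.55 for AT4G19050. For CYP705A22 it was -0.38, beside -1.11 for DOF6.

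The 250 bases before the annotated starts of PEAR1 and TMO6, the pair of members with the most alike profiles over the 12 libraries, are shown with matches to the DOF core AAAG, on either strand, in capitals (RefSeq TAIR10.1 genome, 5′ to 3′ on the strand of the gene). No annotated protein-coding gene overlaps these windows.
PEAR1 (chr2:15768836-15769085, plus strand): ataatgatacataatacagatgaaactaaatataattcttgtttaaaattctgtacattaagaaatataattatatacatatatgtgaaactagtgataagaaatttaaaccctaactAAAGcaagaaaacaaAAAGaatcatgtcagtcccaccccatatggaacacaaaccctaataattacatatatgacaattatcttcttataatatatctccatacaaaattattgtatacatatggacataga
TMO6 (chr5:24240560-24240809, plus strand): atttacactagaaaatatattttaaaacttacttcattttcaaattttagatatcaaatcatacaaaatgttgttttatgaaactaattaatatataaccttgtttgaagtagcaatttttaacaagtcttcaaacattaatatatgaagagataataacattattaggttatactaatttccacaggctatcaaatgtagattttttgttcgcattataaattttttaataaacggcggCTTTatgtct
PEAR1 had 2 matches and TMO6 1, and over the other members PEAR2 had 3, DOF6 4, OBP2 1 and HCA2 2. At least 1 match stood in 98.0% of the 27443 promoters of protein-coding genes of this length, with a median of 4. The sequence AGATT, bound by the type-B response regulators of cytokinin signalling and also searched on both strands, stood once in the windows of TMO6 and DOF6 and in none of the other 4, against 63.7% of all promoters. Matches of AGATT and AAAG can overlap, since the last letters of AAAG can begin AGATT. These are letters in a window and say nothing of binding.

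Falls were common elsewhere in the DOF family. Of 30 other DOF genes 22 were tested, and 8 had too few counts. At 8 h 10 fell and 5 rose (median log2 fold change -0.06), against 23.1% lower and 22.3% higher among all genes. At 24 h 12 fell and 4 rose (median -0.41), against 34.0% lower and 38.3% higher among all genes. DOF2.5, also called DAG2 and known from seed germination, fell at both times (log2 fold change -1.01 at 8 h and -2.72 at 24 h), from 105 ± 2.36 to 15.9 ± 1.49 CPM at 24 h. DOF1.6 fell mainly at the later time (log2 fold change -0.28 at 8 h and -3.18 at 24 h). DOF2.1, known to act with cytokinin in root vascular divisions downstream of TMO5 and LHW, also fell (log2 fold change -0.76 at 8 h and -1.38 at 24 h). So did DOF3.1 (log2 fold change -0.61 at 8 h and -1.99 at 24 h) and DOF3.4 or OBP1, a regulator of cell cycle entry (log2 fold change -0.55 at 8 h and -1.89 at 24 h). DOF4.6 (log2 fold change -0.59 at 8 h and -1.27 at 24 h) and DOF1.5 (log2 fold change -0.56 at 8 h and -1.49 at 24 h) also fell. DOF1.4 rose at both times (log2 fold change 1.66 at 8 h and 2.67 at 24 h), from 0.885 ± 0.152 to 5.62 ± 1.31 CPM at 24 h. So did DOF5.7 (0.54 at 8 h and 1.05 at 24 h) and DOF5.2 (1.17 and 0.64), while DOF1.10 rose at 8 h only (1.50). DOF5.5 (-1.55 at 8 h and -0.48 at 24 h) and DOF5.8 (-1.74 and -5.85) fell at both times, DOF5.8 to 0.00801 CPM in induced roots at 24 h.

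**Figure D4:**
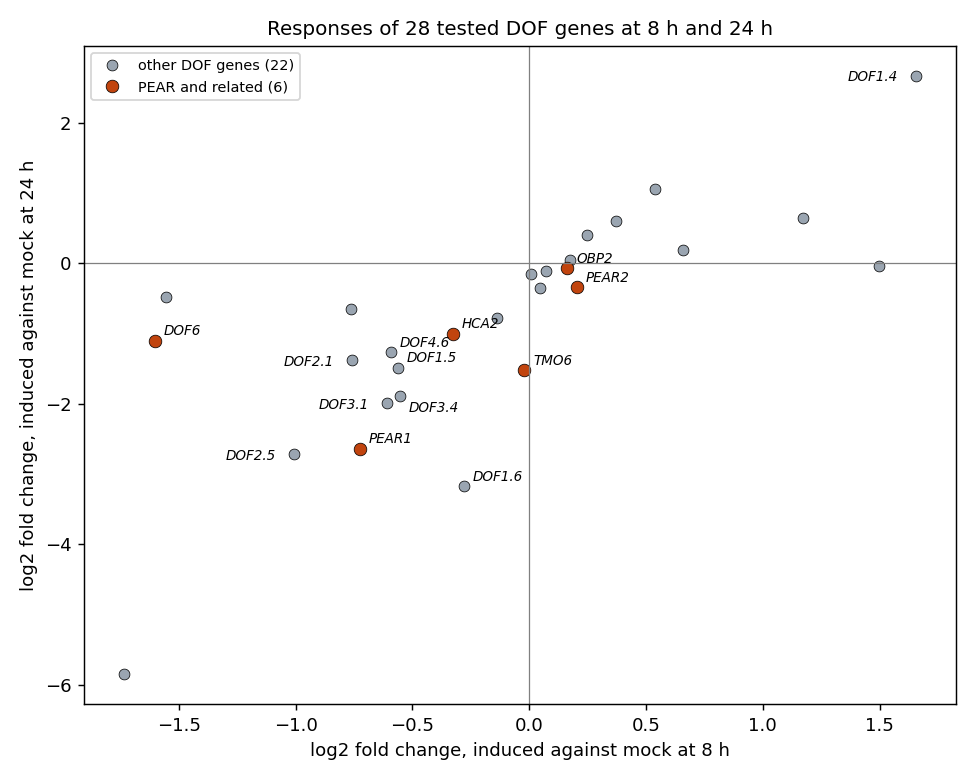
Log2 fold change of induced against mock roots at 8 h (x axis) and at 24 h (y axis) for 28 tested DOF genes, with the 6 genes described here in red and 22 others in grey. PEAR1, TMO6, HCA2 and DOF6 lie among the grey genes that are lower at 24 h, OBP2 and PEAR2 lie near the origin, and the lowest grey point is DOF5.8, which had 0.00801 CPM in induced roots at 24 h and whose fitted value is therefore uncertain.

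The partners of the PEAR genes did not move as a block. Of the 3 SMXL genes that act in early phloem, SMXL3 rose from 25 ± 3.57 to 79.2 ± 7.5 CPM at 8 h and from 25.3 ± 0.774 to 103 ± 8.86 CPM at 24 h. A link between its rise and the levels of the PEAR genes was not tested. SMXL4 (log2 fold change -0.57 at 8 h and -1.55 at 24 h) and SMXL5 (log2 fold change -0.46 at 8 h and -1.09 at 24 h) fell. Of the 5 HD-ZIP III genes that oppose PEAR action, 1 rose and 2 fell at 8 h, where 22.3% of all genes rose and 23.1% fell, and 3 fell at 24 h, where 34.0% did. ATHB8 and CNA, which had the lowest adjusted p of the list, fell at 24 h with log2 fold changes of -0.71 and -0.66. At 24 h the HD-ZIP III median was -0.26, beside -1.06 for the 6 DOF genes, a difference that was not tested.

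Genes of the auxin and cytokinin inputs to the PEAR genes went both ways, and most cytokinin response genes fell. Of 12 input genes 5 rose and 2 fell at 8 h (22.3% and 23.1% of all genes), and 3 rose and 6 fell at 24 h (38.3% and 34.0% of all genes). LOG4, of a family of cytokinin activating enzymes, rose at both times (log2 fold change 1.04 at 8 h and 0.72 at 24 h). LOG3, of the same family, fell at both times (-0.53 at 8 h and -1.18 at 24 h). In mock roots at 8 h LOG3 had 8.14 CPM and LOG4 1.92 CPM. The cytokinin receptor gene AHK2 rose at 8 h (0.29) and was not called at 24 h (0.05). A further receptor gene, AHK4, fell from 107 ± 9.29 to 37.2 ± 4.28 CPM at 8 h and from 106 ± 4.91 to 34.8 ± 1.17 CPM at 24 h. MP, which encodes the MONOPTEROS activator of TMO6, had a log2 fold change of 0.03 at 8 h, not called, and fell at 24 h (-0.59). Of 9 tested type-A response regulator genes, which cytokinin induces, 9 fell at 8 h and 8 at 24 h, against the same 23.1% and 34.0% of all genes, with medians of -2.02 and -3.28. Among them were ARR7 (log2 fold change -3.41 at 8 h and -4.8 at 24 h) and ARR4 (log2 fold change -2.16 at 8 h and -3.74 at 24 h).

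Most genes of the cambium and of sieve elements also fell, where 23.1% of all genes did at 8 h and 34.0% at 24 h. Of 8 genes of the cambium and of the network that TMO6 forms with WOX14 and LBD4, 7 fell at 8 h and 8 at 24 h (medians -0.96 and -2.99). Among them were LBD4 (log2 fold change -1.7 at 8 h and -3.7 at 24 h) and PXY, a receptor gene of cambium cells (log2 fold change -0.72 at 8 h and -3.22 at 24 h). At 8 h LBD4 was called and TMO6 was not, and a link between the levels of these genes was not tested. Of 14 genes of sieve element development 10 fell and 2 rose at 8 h, and 11 fell and 1 rose at 24 h (medians -0.88 and -1.55), with BAM3 and CLE26, which encode a peptide receptor and a peptide of the protophloem, at log2 fold changes of -1.67 and -3.4 at 24 h. MAKR5, a regulator of protophloem that acts with BAM3, rose at both times (log2 fold change 0.63 at 8 h and 0.72 at 24 h). All these lists were chosen with earlier results of these data known.

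Markers of root tissues were found in the mock libraries, and several lists were lower in induced roots. Beside the counts of markers below, 23.1% of all genes fell and 22.3% rose at 8 h, and 34.0% fell and 38.3% rose at 24 h. The 7 phloem markers summed to 461 to 568 CPM in mock and 565 to 648 CPM in induced roots at 8 h, when 2 fell and 2 rose, and to 456 to 589 CPM and 268 to 275 CPM at 24 h, when 5 fell and 2 rose. SUC2, the sucrose transporter gene of companion cells, rose from 34.6 ± 5.16 to 180 ± 19.7 CPM at 8 h and from 37.7 ± 9.27 to 139 ± 11.7 CPM at 24 h. Without SUC2 the other 6 summed to 432 to 529 CPM in mock and 408 to 454 CPM in induced roots at 8 h, and to 427 to 541 and 124 to 142 CPM at 24 h. The phloem sum thus overlapped at 8 h with and without SUC2 and was lower at 24 h either way. SAPL, the other marker that rose, did so at both times (log2 fold change 1.09 at 8 h and 0.53 at 24 h). SEOR1 (183 CPM) and SEOR2 (137 CPM) were the largest parts of the mean sum without SUC2 in mock roots at 8 h (484 CPM). The 4 cambium markers summed to 465 to 524 CPM in mock and 224 to 263 CPM in induced roots at 8 h, when 4 fell and 0 rose, and to 487 to 513 CPM and 69.6 to 70.9 CPM at 24 h, when 4 fell and 0 rose. These markers are not a separate set: PXY, WOX4 and ANT were also counted in the cambium and TMO6 network list, and SMXL5 among the SMXL genes. APL was likewise in both the sieve element and the phloem marker list. The 7 xylem markers summed to 464 to 753 CPM in mock and 422 to 602 CPM in induced roots at 8 h, when 1 fell and 0 rose, and to 467 to 709 CPM and 124 to 182 CPM at 24 h, when 7 fell and 0 rose. Cambium markers were thus lower at both times, while the phloem and xylem sums were below every mock library of the same time at 24 h only. The 5 periderm and suberin markers summed to 811 to 945 CPM in mock and 477 to 579 CPM in induced roots at 8 h, when 4 fell and 0 rose, and to 799 to 966 CPM and 28.8 to 57.3 CPM at 24 h, when 5 fell and 0 rose. The 2 pericycle markers summed to 127 to 157 CPM in mock and 53.7 to 58.5 CPM in induced roots at 8 h, when 2 fell and 0 rose, and to 120 to 146 CPM and 15.4 to 21.2 CPM at 24 h, when 1 fell and 0 rose. The 2 cortex markers summed to 83.1 to 117 CPM in mock and 14.8 to 28.7 CPM in induced roots at 8 h, when 2 fell and 0 rose, and to 76.8 to 84 CPM and 0.409 to 1.34 CPM at 24 h, when 2 fell and 0 rose. These outer tissue and pericycle sums were below the mock range at both times. The 3 endodermis markers summed to 5.01 to 9.02 CPM in mock and 4.19 to 5.68 CPM in induced roots at 8 h, when 0 fell and 1 rose, and to 5.67 to 11.5 CPM and 7.15 to 10.5 CPM at 24 h, when 2 fell and 1 rose. The 3 root tip markers summed to 0.531 to 1.05 CPM in mock and 1.15 to 1.55 CPM in induced roots at 8 h, when 0 fell and 1 rose, and to 0.5003 to 0.808 CPM and 6.73 to 7.46 CPM at 24 h, when 0 fell and 3 rose. The 3 green tissue markers summed to 2168 to 2197 CPM in mock and 2187 to 2665 CPM in induced roots at 8 h, when 0 fell and 1 rose, and to 1860 to 2502 CPM and 1352 to 1453 CPM at 24 h, when 3 fell and 0 rose. The endodermis sums overlapped between mock and induced roots at both times, but the markers in them moved apart at 24 h. CASP1 (log2 fold change -2.54) and CASP2 (-1.99) fell and SCR rose (1.36). PHO1 made up most of the pericycle sum (129 CPM in mock roots at 24 h, against 1.15 for SKOR), and SKOR was not called at 24 h. Root tip markers were low in mock roots. No marker of these lists was at 0 in all libraries. The part of these shifts in the falls of the DOF genes was not tested.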

How the data were processed

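RNA sequencing counts per locus came from 12 libraries of pooled root segments. Per the labels' protocols, total RNA went into TruSeq Stranded Total RNA libraries, and per the submitters' processing notes the genome build was TAIR10. Aligner, counting software and use of strand were not given in the sources used here. The values are raw counts as deposited by the authors, whole numbers for 34262 loci. The depth, 34958324 to 41447647 counts per library, limits DOF6 (7 to 37 counts) the most, followed by PEAR1 and HCA2 in induced roots at 24 h (45 to 59 and 50 to 67 counts).

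Counts were tested in R 4.3.3 with edgeR 4.0.16 (quasi-likelihood F test, TMM, filterByExpr, 1 coefficient per group over 12 libraries). P-values were adjusted by Benjamini-Hochberg over 21439 genes and called at 0.05, and the script was tested on simulated data. SE is the absolute log2 fold change divided by the square root of F. Log2 CPM for correlations used a prior count of 2. Alternatives were DESeq2 1.42.0, RLE factors, total library size, no filter beyond 1 count, a 6-library fit, a replicate block and leaving out each library.

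The members and gene lists were chosen with earlier results of these data known. The text names the 6 members, PLT5, up to 8 other DOF genes called with log2 fold changes of 1 or more in size, the first of up to 4 called genes of other lists by adjusted p at 24 h (2, or 3 of the SMXL list), and the 3 genes most correlated with each member. After the values were seen, DOF1.10, DOF5.2, DOF5.5, DOF5.7, DOF5.8, LOG3, LOG4, AHK2, MAKR5, SUC2, SAPL, SEOR1, SEOR2, APL, WOX4, ANT, CASP1, CASP2, SCR, PHO1 and SKOR were named. The phloem sum without SUC2 was also added then. Locus identifiers matched RefSeq TAIR10.1 for 32548 nuclear loci, and 99.95% of these, all 6 members included, had identical starts and ends. Amino acid sequences were not used here, and the finger sequence of HCA2 is not reported here.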

Additional observations from a re-analysis of the deposited data

Results flagged for a closer look

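The induction response at 24 h differed from that at 8 h (edgeR interaction, 24 h minus 8 h on the log2 scale) for 4 of the 6 DOF genes, where 40.8% of all genes were called. The differences were -1.92 for PEAR1, -0.54 for PEAR2, -1.5 for TMO6 and -0.68 for HCA2, the last lost without any 1 of 5 libraries. PEAR2 had a positive fold change at 8 h and a negative one at 24 h.

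Among the other DOF genes named by adjusted p at 24 h the difference was -1.71 for DOF2.5, -2.9 for DOF1.6 and -1.39 for DOF3.1. It was -1.33 for DOF3.4, -0.63 for DOF2.1, -0.67 for DOF4.6 and -0.92 for DOF1.5, and 1.01 for DOF1.4, which rose further. Of the genes of other lists named by the same ranking it was -0.98 for SMXL4, -0.63 for SMXL5, -0.64 for ATHB8, -0.42 for CNA and -0.62 for MP. It was -1.39 for ARR7, -1.58 for ARR4, -2.5 for PXY, -2.00 for LBD4, -0.65 for BAM3 and -2.32 for CLE26. SMXL3 (0.36, adjusted p = 0.059) and AHK4 (-0.08, adjusted p = 0.61), also named by that ranking, were not called in the edgeR interaction. A ranking by adjusted p at 24 h favours genes with large responses at 24 h.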

How the results depend on the processing

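Among the recomputed log2 fold changes of the 6 genes over 5 comparisons, 516 kept their direction and their side of the threshold, 7 changed sign, 6 lost their call and 4 gained one. With total library size, which moved the median of all genes at 24 h from 0.06 to 0.20, 4 members were called at 8 h in place of 2: PEAR2 and OBP2 were called higher (0.30 and 0.26), TMO6 turned to 0.076, and at 24 h PEAR2 was not called (-0.20) and OBP2 turned to 0.0727. At 8 h this scaling also put 65.1% of all calls on the higher side, against 49.1% with TMM. Leaving out 1 library at a time gave values of -0.0884 to 0.0447 for TMO6 at 8 h, 0.109 to 0.239 for OBP2 at 8 h, -0.309 to -0.166 for the OBP2 interaction and -0.786 to -0.568 for the HCA2 interaction, and for mock 24 h against mock 8 h -0.0368 to 0.0963 for TMO6 and -0.271 to 0.165 for DOF6, with TMO6 and DOF6 changing sign without ever being called. The cause was not tested.

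Between mock roots of 8 h and 24 h the count of all genes called varied. It was 142 in the 12-library fit, 271 with the replicate block, 387 with DESeq2, and 0 in the 6-library fit by edgeR (1691 genes at an unadjusted p under 0.05, against 2032 in the 12-library fit), and 1 to 204 without 1 library. None of the 6 genes was called in any of these. Replicate numbers are shared between groups, and 7 of 18 same-numbered pairs deviated together (r over 0.1). The median r was 0.0687 for same-numbered pairs and -0.0863 for other pairs, and 7 of 12 libraries were closest to their own number. These values do not settle whether the numbers pair samples, and the main fit had no block. The replicate block left the members called at 2, 5 and 4 of 6 at 8 h, at 24 h and in the interaction, and changed no call of a member. DESeq2 gave no adjusted p for DOF6 in mock roots over time, and a 6-library fit of the interaction is not defined. With the longest RefSeq transcript as the length the summed level was 45.2, 43.1, 43.7 and 19.9 CPM per kb in mock 8 h, induced 8 h, mock 24 h and induced 24 h roots, and with total library size it was 39.7, 40.5, 38.8 and 19.3 CPM per kb in the same order, so that at 8 h the induced mean was above the mock mean, where it was below it with TMM. P-values measure the spread between pools of plants, and counts of 7 to 37 limit what can be said of DOF6.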
